A study of Mus musculus with 7 samples.

Results

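The miR-181 family of the mouse colorectum is described here through the 10 mature microRNA (miRNA) entries whose names begin with miR-181a, miR-181b, miR-181c or miR-181d, out of 1915 entries in the count table. Of these 10 entries, 4 are 5p arms (mmu-miR-181a-5p, mmu-miR-181b-5p, mmu-miR-181c-5p and mmu-miR-181d-5p), called guide strands below because they hold nearly all reads of the family, and 6 are 3p arms, called passenger strands. Small RNA was sequenced from 6 wild-type female C57BL/6 mice of 7 weeks. The 3 CRC mice (colorectal cancer; M4, M5 and M6) received 10 mg per kg of the carcinogen azoxymethane (AOM) by injection. Starting 5 days later they drank 2.5% dextran sodium sulfate (DSS), an agent that damages the lining of the colon, for 7 days and then water for 14 days. The labels describe repeats of this cycle and give stage T1 as day 17 after induction. The 3 healthy mice (M1, M2 and M3) were injected with 0.9% NaCl as negative controls, and the labels do not say what they drank. The labels list 2 libraries of M1 and the table has 1 column with that name, which was used as 1 profile. No group is labelled as given AOM or DSS by itself, so the effects of the carcinogen, of the injury and of tumours cannot be told apart.

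A miRNA is cut from a hairpin precursor, and bases 2 to 8 of the loaded strand, the seed, pair with the messenger RNAs it represses. Members of a family with 1 seed can repress largely overlapping sets of messenger RNAs, whichever hairpin they come from. The miR-181 family is best known from the thymus, where mouse miR-181a lowers phosphatases of T cell receptor signalling and so sets how strongly a thymocyte responds. In endothelium, mouse miR-181b dampens NF-kB signalling through importin-α3, and in the rat heart miR-181c represses a subunit of the respiratory chain inside mitochondria.

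The sequences counted for the guide strands are shown because the 4 members share the seed and differ only behind it. They are given as the authors deposited them, 5′ to 3′ in DNA letters, with the seed in capitals.
mmu-miR-181a-5p: aACATTCAacgctgtcggtgagt
mmu-miR-181b-5p: aACATTCAttgctgtcggtgggt
mmu-miR-181c-5p: aACATTCAacctgtcggtgagt
mmu-miR-181d-5p: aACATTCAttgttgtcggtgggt

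No other of the 1915 entries carried this seed. With positions counted from 1 at the 5′ end of the strand named first, miR-181a-5p and miR-181b-5p differed by A9T, C10T and A21G, and miR-181b-5p and miR-181d-5p by C12T. The miR-181c-5p sequence had 22 bases against 23 in miR-181a-5p and lay 1 edit from it. The rule for counting reads that match several of these sequences is not known.

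The family comes from 6 hairpins in 3 clusters. In GRCm38, Mir181a-1 (chr1:137966455-137966541) and Mir181b-1 (chr1:137966639-137966718) lie 97 bases apart on the plus strand and overlap an exon of the long noncoding gene A430106G13Rik on the same strand. Mir181a-2 (chr2:38852735-38852810) and Mir181b-2 (chr2:38853830-38853918) lie 1019 bases apart on the plus strand, inside an intron of Nr6a1, which runs on the opposite strand. Mir181c (chr8:84178873-84178961) and Mir181d (chr8:84178716-84178787) lie 85 bases apart on the minus strand in an intron of Nanos3. Mature miR-181a-5p and miR-181b-5p each come from both the chromosome 1 and the chromosome 2 cluster, so their reads cannot be assigned to either. Each passenger strand comes from 1 hairpin. The rule for reads that match several entries is not known, so reads of passenger strands that are alike may be mixed. The Mir181a hairpins are shown from RefSeq (GRCm38.p6, plus strand, RNA letters) with the annotated 5p and 3p arms in capitals, because their 5p arms are identical and their 3p arms are not.
Mir181a-1: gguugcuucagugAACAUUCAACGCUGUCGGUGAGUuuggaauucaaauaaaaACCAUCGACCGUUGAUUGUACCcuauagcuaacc
Mir181a-2: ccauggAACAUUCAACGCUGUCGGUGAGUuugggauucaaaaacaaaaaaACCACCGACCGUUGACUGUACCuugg

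The sequence deposited for miR-181a-2-3p begins 3 bases further into this hairpin than the RefSeq arm. Among the passenger strands, miR-181b-1-3p and miR-181b-2-3p share bases 2 to 8. They were deposited with 19 and 22 bases and lay 4 edits apart. The passenger strands of Mir181a-1 and Mir181c, shown here, are also alike. They share bases 2 to 8 (in capitals) and differ by T16G and T19G, counted from the 5′ end of miR-181a-1-3p.
miR-181a-1-3p: aCCATCGAccgttgattgtacc
miR-181c-3p: aCCATCGAccgttgagtggacc

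All 10 mature entries were found by name in RefSeq, 7 of them with an identical sequence.

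Total miRNA reads ran from 3206127 to 6601899 in the CRC profiles and from 8222508 to 15280434 in the healthy profiles. Levels are counts scaled per 1e6 reads (CPM) on library sizes scaled by TMM, which removes shifts shared by most miRNAs, with factors from 0.948 to 1.55 in CRC and from 0.582 to 1.104 in healthy mice. When libraries were scaled by total counts alone, the log2 fold changes of all tested miRNAs moved up by a median of 0.71. The profiles lay in neighbouring pairs: across 498 miRNAs, log2 levels correlated at 0.985 between M5 and M6, at 0.993 between M1 and M2, and at 0.969 between the CRC profile M4 and the healthy profile M3, against at most 0.932 between profiles of different pairs. These correlations are across miRNAs, which are not independent replicates. For this reason the main values of the family are also given without M3 and M4.

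Between CRC and healthy colorectum no miR-181 entry had a Benjamini-Hochberg adjusted p under 0.05 in the quasi-likelihood test of edgeR. The guide strands of the a and b type had lower levels in the CRC mice, at 0.53 and 0.45 times the healthy level in the fit. Those of the c and d type had fitted levels of 1.31 and 1.45 times the healthy one. Of the 10 entries 8 had enough reads to be tested, of which 0 were called, against 20 of 878 tested miRNAs (2.28%), all 20 higher in CRC. At an unadjusted p under 0.05 the family held 1 entry, miR-181b-5p, which was lower, as were 9.68% of all tested miRNAs. The 8 tested entries split into 4 with positive and 4 with negative log2 fold changes, with a median of 0.09 beside -0.03 over all tested miRNAs.

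The most abundant member was mmu-miR-181a-5p, ranked 42 of all entries by mean level. Its levels were 4236 CPM in M4, 2347 CPM in M5 and 2253 CPM in M6, against 6368 CPM in the healthy M1, 6557 in M2 and 3659 in M3. M4 lay above the healthy profile M3, so the groups overlapped, while M5 and M6 lay below every healthy mouse. The means were 2945 ± 1119 CPM in CRC and 5528 ± 1621 CPM in healthy mice (SD, n = 3 each). The log2 fold change was -0.91 (SE 0.41, edgeR adjusted p = 0.221), and 17.1% of the tested miRNAs had a value at or below it.

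For mmu-miR-181b-5p, which comes from the same clusters as miR-181a-5p, the levels were 792 CPM in M4, 366 CPM in M5 and 413 CPM in M6, against 1381 CPM in the healthy M1, 1318 in M2 and 816 in M3. Every CRC profile was below every healthy one, by a narrow margin between M4 and M3; this held for 12.4% of all tested miRNAs. The means were 523 ± 234 CPM in CRC and 1172 ± 310 CPM in healthy mice (SD, n = 3 each), and the log2 fold change was -1.16 (SE 0.45, edgeR adjusted p = 0.158).

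The chromosome 8 member mmu-miR-181c-5p had 702 CPM in M4, 1043 CPM in M5 and 716 CPM in M6, against 618 CPM in the healthy M1, 676 in M2 and 592 in M3. Every CRC profile was above every healthy one, as for 14.1% of all tested miRNAs, and M5 stood highest. With means of 820 ± 193 CPM in CRC and 628 ± 42.8 CPM in healthy mice (SD, n = 3 each), the log2 fold change was 0.38 (SE 0.38, edgeR adjusted p = 0.574). It was 0.20 without M5, 0.25 without M3 and 0.15 without both M3 and M4. Of its passenger strand, miR-181c-3p, 94.9 CPM were counted in M4, 67.7 CPM in M5 and 51.7 CPM in M6, against 42.3 CPM in the healthy M1, 51.2 in M2 and 43.1 in M3. The CRC values of this strand also exceeded all healthy ones, but in M6 by only a small margin over M2 (log2 fold change 0.65, SE 0.41, edgeR adjusted p = 0.361). The value was 0.059 without both M3 and M4, and 1.14 with the neighbouring profiles as blocks.

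The least abundant guide strand, mmu-miR-181d-5p, had 310 CPM in M4, 136 CPM in M5 and 127 CPM in M6, against 138 CPM in the healthy M1, 123 in M2 and 134 in M3. M4 alone stood out, and M5 and M6 lay within or near the healthy range. The means were 191 ± 103 CPM in CRC and 132 ± 7.82 CPM in healthy mice (SD, n = 3 each), with a log2 fold change of 0.54 (SE 0.46, edgeR adjusted p = 0.509). Without M4 the log2 fold change was 0.089.

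**Figure D1:**
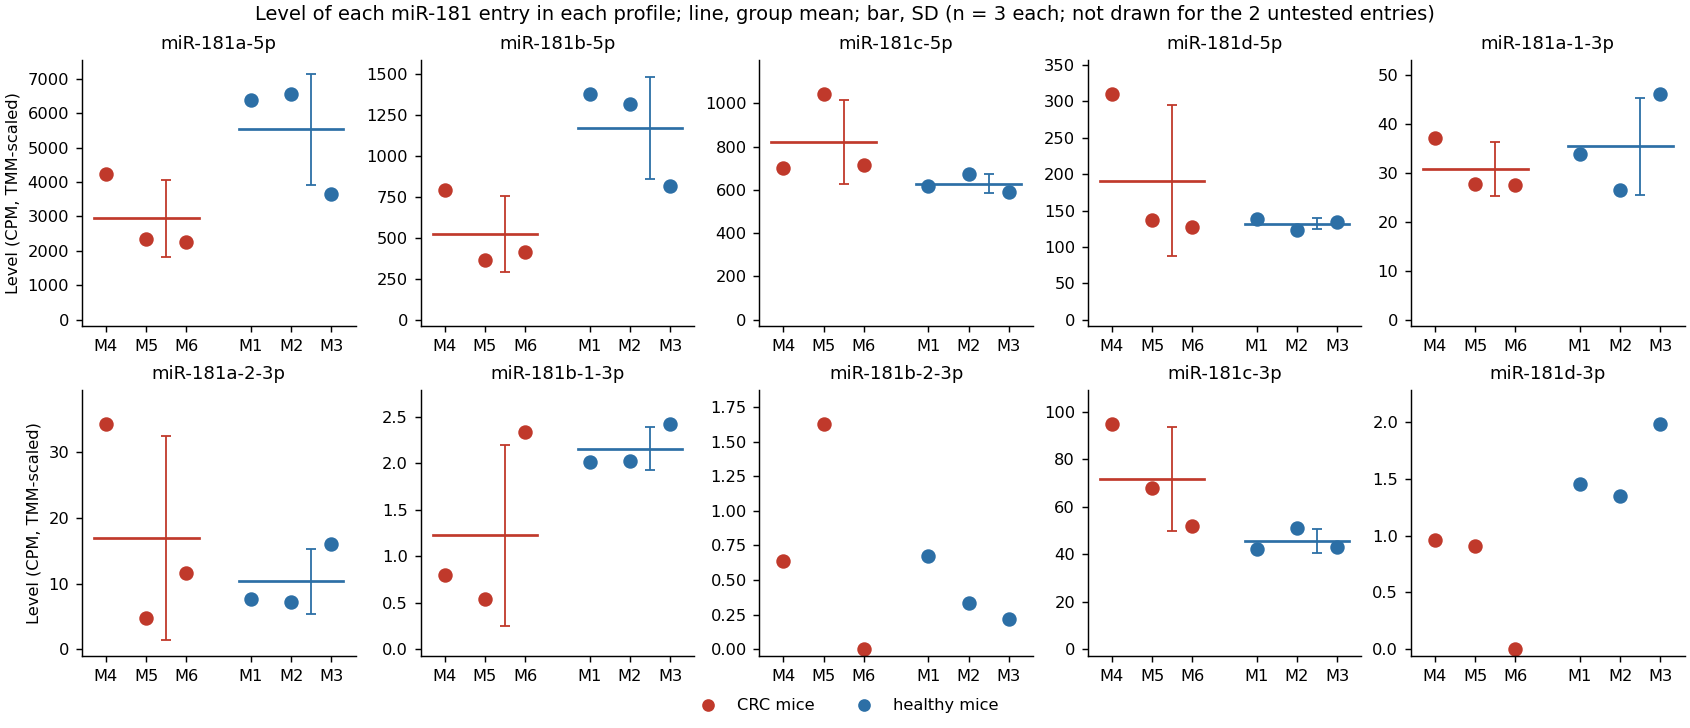
Level of each of the 10 miR-181 entries (y axis, CPM on TMM-scaled library sizes, from 0) in the CRC mice M4 to M6 (red) and the healthy mice M1 to M3 (blue); lines are group means and bars SD (n = 3 each), not drawn for the 2 untested entries. In miR-181a-5p and miR-181b-5p, M5 and M6 are lowest and M1 and M2 highest, with M4 and M3 close together; in miR-181d-5p and miR-181a-2-3p, M4 is highest.

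The remaining passenger strands were rare. miR-181a-1-3p had 37.1, 27.7 and 27.6 CPM in the CRC mice M4, M5 and M6, against 33.8, 26.6 and 46.2 CPM in the healthy mice M1, M2 and M3, with overlapping groups (log2 fold change -0.20, SE 0.42, edgeR adjusted p = 0.791). miR-181a-2-3p, from the chromosome 2 cluster, had 34.4 CPM in M4, 4.71 CPM in M5 and 11.7 CPM in M6, against 7.72 CPM in the healthy M1, 7.20 in M2 and 16.1 in M3. It was highest in M4 and lowest in M5, both CRC mice (log2 fold change 0.71, SE 0.71, edgeR adjusted p = 0.579), and without M4 its value was -0.26. miR-181b-1-3p, counted at 3 to 11 reads in the CRC and 18 to 22 reads in the deeper healthy libraries, had 0.799 CPM in M4, 0.543 CPM in M5 and 2.34 CPM in M6, against 2.01 CPM in the healthy M1, 2.03 in M2 and 2.42 in M3. The groups overlapped, since M6 lay above M1 and M2 (log2 fold change -0.84, SE 0.65, edgeR adjusted p = 0.468). The value was -1.66 without M6, -0.51 without M4 and -0.46 without M5. Untested were miR-181b-2-3p, with 4, 9 and 0 reads in M4, M5 and M6 against 6, 3 and 2 reads in M1, M2 and M3, and miR-181d-3p, with 6, 5 and 0 reads against 13, 12 and 18 reads. For the zeros of M6 the upper limit is 0.638 CPM (3 reads, counting error only).

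The order of the guide strands by level differed between profiles. In M1, M2 and M3 it ran from miR-181a-5p over miR-181b-5p and miR-181c-5p to miR-181d-5p, and M4 had the same order with miR-181b-5p (792 CPM) close to miR-181c-5p (702 CPM). In the CRC profiles M5 and M6 miR-181c-5p stood second, above miR-181b-5p. The means of miR-181b-5p and miR-181c-5p in CRC mice differed by less than the sum of their SDs, and those in healthy mice by more.

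Ratios between members of 1 profile need no scaling factor, so they show the makeup of the family on every scale. Of the reads of all 4 guide strands, miR-181c-5p made up 11.6% in M4, 26.8% in M5 and 20.4% in M6, against 7.26% in M1, 7.79% in M2 and 11.4% in M3. For every 100 reads of miR-181a-5p there were 16.6, 44.5 and 31.8 reads of miR-181c-5p in the CRC mice M4, M5 and M6, against 9.70, 10.3 and 16.2 reads in the healthy mice M1, M2 and M3. The groups did not overlap, but M4 and M3 were nearly level. The ratio of miR-181d-5p was 7.32, 5.81 and 5.62 reads per 100 of miR-181a-5p in M4, M5 and M6, against 2.17, 1.88 and 3.67 reads in M1, M2 and M3, with a wider gap between the groups. On the log2 scale these ratios were higher in CRC by 1.29 for miR-181c-5p and by 1.33 for miR-181d-5p. An exact two-sided permutation test gave p = 0.1 for both, the smallest value 3 mice against 3 can give, so neither passes a threshold of 0.05. In all, 6 ratios between guide strands were compared, of which 5 had this p. They are built from the same 4 strands, so they are not independent and do not add up as repeated evidence. How many ratios between other miRNAs separate the groups in this way was not counted.

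The steadiest of these ratios was that of miR-181b-5p to miR-181a-5p, which varied 1.43-fold over the 6 profiles, with 17.5 ± 1.70 reads per 100 in CRC and 21.4 ± 1.13 reads per 100 in healthy mice (SD, n = 3 each), and was lower in every CRC profile (exact two-sided permutation p = 0.1). The ratio of miR-181c-5p to miR-181a-5p varied 4.58-fold. In the chromosome 8 cluster, miR-181d-5p had 44.2 reads per 100 of miR-181c-5p in M4, 13.1 in M5 and 17.7 in M6, against 22.3 in M1, 18.2 in M2 and 22.7 in M3, so that M4 was above and M5 and M6 below all healthy mice. The passenger strands of the Mir181a hairpins compare the 2 clusters, within the limit of the unknown counting rule. Per 100 reads of miR-181a-1-3p there were 92.7 reads of miR-181a-2-3p in M4, 16.99 in M5 and 42.3 in M6, against 22.8 in M1, 27.1 in M2 and 34.8 in M3. This ratio spread more within the CRC mice than between the groups (exact two-sided permutation p = 0.6).

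**Figure D2:**
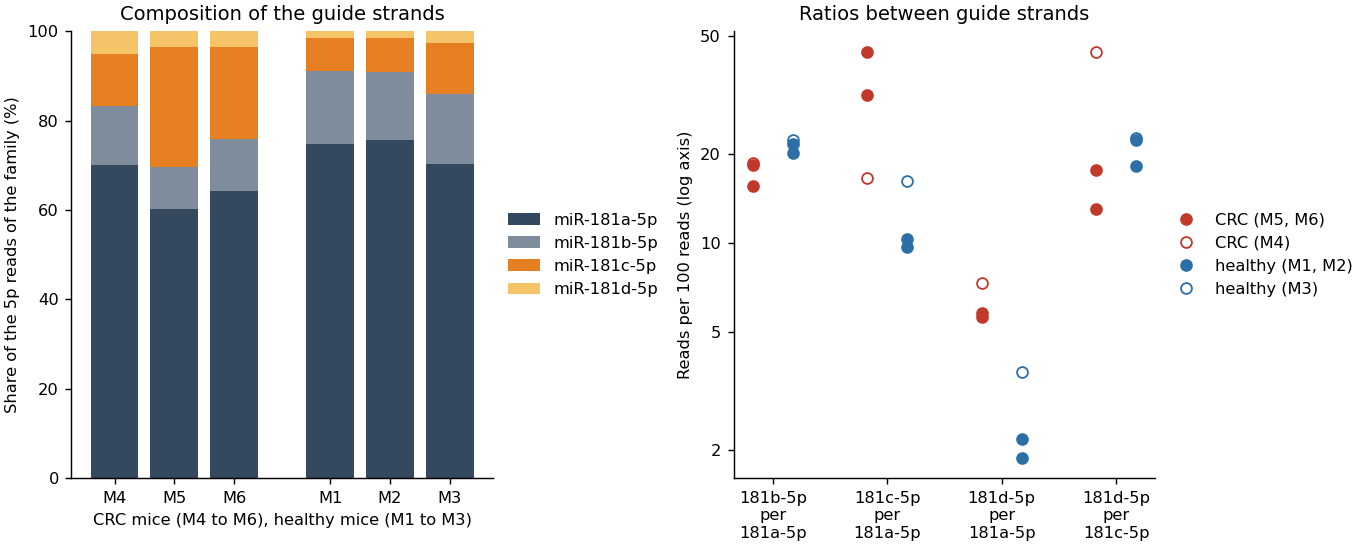
Left, share of each guide strand in the 5p reads of the family (y axis, %) in the CRC mice M4 to M6 and the healthy mice M1 to M3; right, reads of 1 guide strand per 100 reads of another (log axis), with CRC in red, healthy in blue and the neighbouring profiles M4 and M3 as open circles. The share of miR-181c-5p reaches 26.8% in M5, while M4 (11.6%) and M3 (11.4%) are alike; miR-181d-5p per miR-181a-5p separates the groups with a gap.

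The log2 fold changes of all 4 guide strands were higher with total counts alone than with TMM. The 4 guide strands together took 0.572%, 0.603% and 0.515% of all miRNA reads in the CRC mice M4, M5 and M6, against 0.612%, 0.504% and 0.574% in the healthy mice M1, M2 and M3. On the TMM scale the same sum was 4480 ± 1364 CPM in CRC and 7459 ± 1958 CPM in healthy mice (SD, n = 3 each). Scaled by total counts alone, the log2 fold changes in edgeR were -0.18 for miR-181a-5p (SE 0.29), -0.47 for miR-181b-5p (SE 0.36), 1.16 for miR-181c-5p (SE 0.44) and 1.12 for miR-181d-5p (SE 0.47), none past the threshold. On that scale miR-181c-5p, miR-181d-5p and miR-181c-3p were above every healthy profile in every CRC profile, as were 19% of all tested miRNAs. The signs of the 4 guide strands were the same under both scalings; that of miR-181a-1-3p was positive (0.39) with total counts alone.

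**Figure D3:**
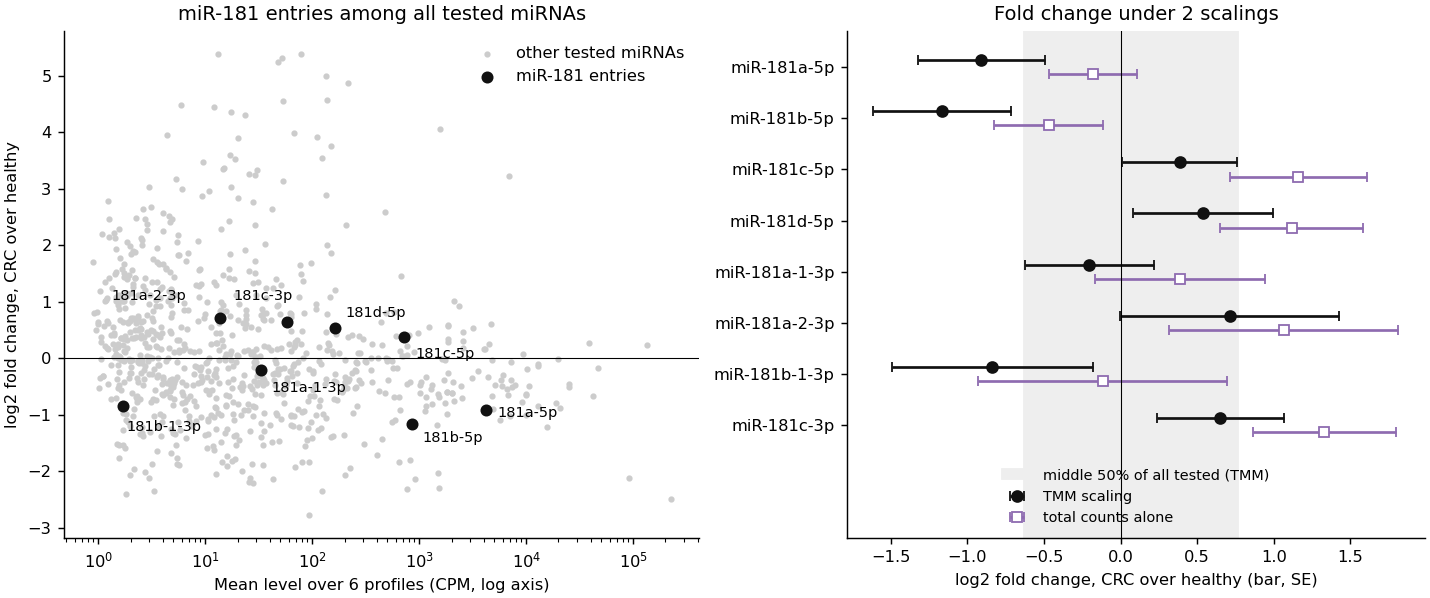
Left, log2 fold change of CRC over healthy against mean level (CPM, log axis) for all 878 tested miRNAs (grey) with the 8 tested miR-181 entries in black. Right, the log2 fold changes of these entries with SE under TMM scaling (black circles) and with total counts alone (open squares); the grey band holds the middle 50% of all tested miRNAs, and only miR-181a-5p, miR-181b-5p and miR-181b-1-3p lie outside it on the TMM scale.

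The difference in miR-181a-5p and miR-181b-5p lay between M5 and M6 on 1 side and M1 and M2 on the other. Without both M3 and M4, miR-181a-5p had a log2 fold change of -1.77 (SE 0.24, edgeR adjusted p = 4.03e-06) and miR-181b-5p of -2.07 (SE 0.25, edgeR adjusted p = 1.16e-06). In that comparison of 2 mice with 2, 27.4% of the 1082 tested miRNAs were called lower, so passing there does not set these members apart. M3 and M4 were left out because of their place in these same data. The p-values without both of them, here and below, are therefore descriptive only. Without M4 alone, miR-181b-5p was called lower (-1.49, SE 0.39, edgeR adjusted p = 0.0309), with 5.64% of the 1188 tested miRNAs called lower. With the neighbouring profiles as blocks, where M4 against M3 carries the group difference, miR-181a-5p had a log2 fold change of 0.21 and miR-181b-5p of -0.04. For miR-181d-5p the larger value came with blocks, at 1.21, against -0.27 without both M3 and M4. The values with blocks compare 1 mouse with 1, and the blocks were drawn from these same data. They are given as descriptions only. In M4 the entries miR-181d-5p, miR-181c-3p and miR-181a-2-3p were above M3 by 1.21, 1.14 and 1.09 log2 units, while miR-181a-5p, miR-181b-5p and miR-181c-5p lay within 0.25 log2 units of it.

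The 5p arm dominated in every profile. It made up 97.3% of the family's reads in M4, 97.4% in M5 and 97.4% in M6, against 99.0% in M1, 99.0% in M2 and 97.9% in M3. Arm ratios were tested with limma on log2 of 5p over 3p counts for the 4 hairpins with enough reads on both arms, and 0 of the 4 passed (0 at an unadjusted p under 0.05), against 2 of 317 hairpins (0.631%). For Mir181a-1 there were 114 reads of miR-181a-5p per read of miR-181a-1-3p in M4, 84.7 in M5 and 81.5 in M6, against 188 in M1, 247 in M2 and 79.3 in M3. The healthy mouse M3 lay below all CRC mice, and M1 and M2 above them (log2 difference -0.74, SE 0.54, limma adjusted p = 0.595). For Mir181a-2 the values per read of miR-181a-2-3p were 123 in M4, 499 in M5 and 193 in M6, against 825 in M1, 910 in M2 and 227 in M3 (log2 difference -1.29, SE 0.68, limma adjusted p = 0.465). Leaving out 1 mouse gave -1.22 (without M3) to -0.41 (without M2) for Mir181a-1, and -1.93 (without M3) to -0.85 (without M4) for Mir181a-2. Because the 5p reads of these 2 hairpins cannot be separated, both ratios share their numerator.

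Of these 4 hairpins, Mir181c had the most 3p reads relative to 5p. There were 7.40 reads of miR-181c-5p per read of miR-181c-3p in M4, 15.4 in M5 and 13.9 in M6, against 14.6 in M1, 13.2 in M2 and 13.7 in M3. Apart from M4 these values lay close together (log2 difference -0.25, SE 0.50, limma adjusted p = 0.784; 0.078 without M4). For Mir181b-1 the ratio ran from 176 in M6 to 991 in M4 among the CRC mice and from 337 in M3 to 686 in M1 among the healthy mice, on few 3p reads (log2 difference -0.22, SE 0.65, limma adjusted p = 0.841). Without both M3 and M4, the ratios of Mir181a-1 (-1.38, SE 0.29, limma adjusted p = 0.0122) and Mir181a-2 (-1.49, SE 0.47, limma adjusted p = 0.0489) were lower in CRC, where 18.6% of 328 hairpins were called lower.

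**Figure D4:**
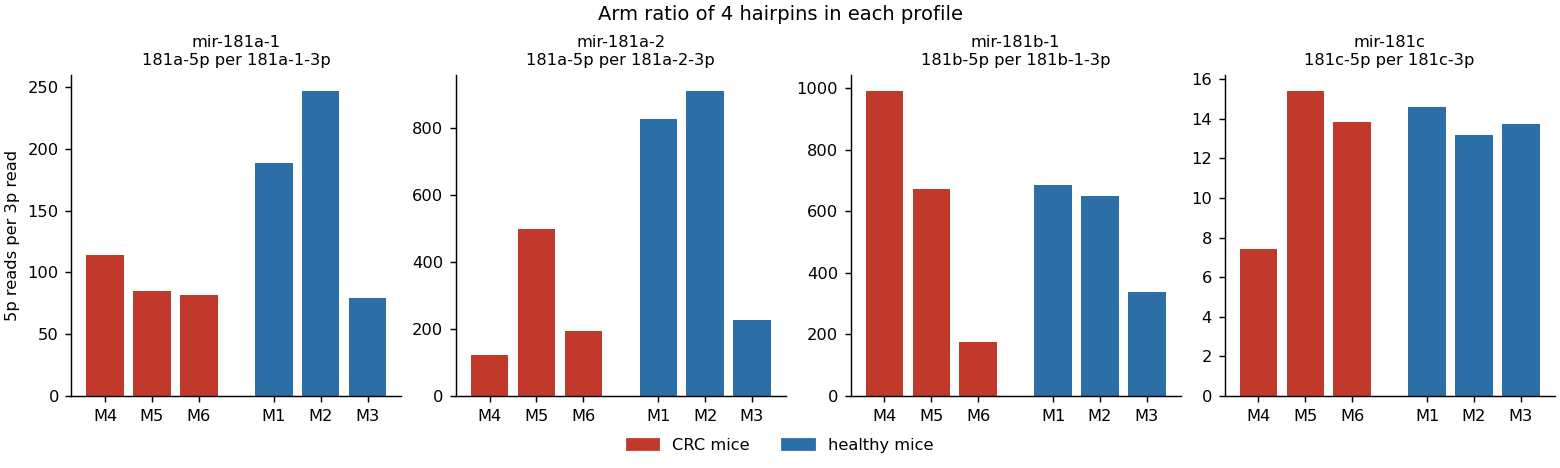
Reads of the 5p arm per read of the 3p arm (y axes, from 0) for 4 miR-181 hairpins in the CRC mice M4 to M6 (red) and the healthy mice M1 to M3 (blue). In both Mir181a hairpins M1 and M2 are highest; in Mir181c the values lie between 13.2 and 15.4 except for 7.40 in M4.

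The miRNAs whose levels followed each guide strand most closely were found by the Pearson correlation of log2 CPM over the 6 profiles, as a description. Since the profiles lie in pairs, 6 points give few separate positions. miR-181a-5p was followed by miR-29c-5p (r = 0.995), miR-23a-3p (0.992), the smooth muscle miRNAs miR-145a-5p (0.992) and miR-143-3p (0.989), and let-7e-5p (0.987). miR-181b-5p was followed by miR-30a-3p (0.995), miR-7b-5p (0.994), miR-145b (0.994), miR-145a-3p (0.994) and miR-152-3p (0.990). The 2 guide strands correlated with each other at 0.985. Their fold changes were smaller than those of the smooth muscle miRNAs beside them: miR-145a-5p had 67580 CPM on average in CRC and 378315 CPM in healthy mice, a log2 fold change of -2.48.

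miR-181c-5p went another way, with correlations of -0.60 to miR-181a-5p and -0.73 to miR-181b-5p. The closest to it were miR-30b-5p (0.831), the red blood cell miRNA miR-451a (0.823), miR-615-3p (0.789), miR-1904 (0.777) and miR-5099 (0.777). Closest to miR-181d-5p were miR-6412 (0.916), miR-183-5p (0.874), miR-149-5p (0.840), miR-106b-3p (0.813) and let-7b-5p (0.792). Although they come from 1 cluster, miR-181c-5p and miR-181d-5p correlated at only -0.01 on the TMM scale. All these correlations were taken on that scale and depend on it. With total counts alone, both strands were above every healthy profile in every CRC profile, with log2 fold changes of 1.16 and 1.12. The values therefore do not show that the 2 strands vary separately.

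**Figure D5:**
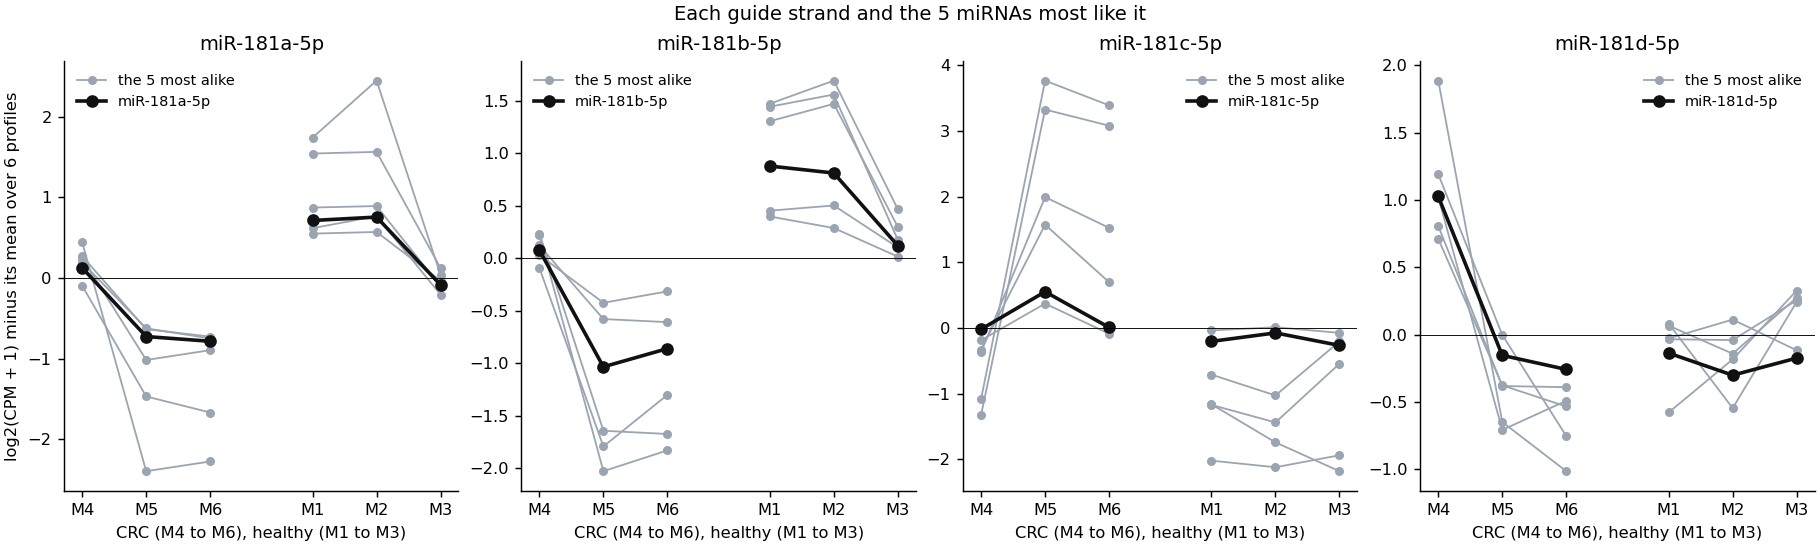
log2(CPM + 1) minus its mean over the 6 profiles (y axis) for each guide strand (black) and the 5 miRNAs most like it (grey) in the CRC mice M4 to M6 and the healthy mice M1 to M3; lines join the values of 1 miRNA and stand for no order of the mice. The a and b type are high in M1 and M2 and low in M5 and M6, the c type is highest in M5 and the d type in M4.

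Marker lists of cell types that a piece of colorectum holds were summed in each profile. In bulk tissue, fewer cells of a type and less RNA per cell cannot be told apart. The summed level of 8 smooth muscle miRNAs was 218874 CPM in M4, 45699 CPM in M5 and 44706 CPM in M6, against 577403 CPM in the healthy M1, 824823 in M2 and 191246 in M3, the same order of pairs as for miR-181a-5p and miR-181b-5p. All 8 had negative log2 fold changes, with a median of -1.86, and 8 had an unadjusted p under 0.05, as had 23.2% of all tested miRNAs, but 0 were called by edgeR. The sum of 4 nerve miRNAs, led by miR-7b-5p (log2 fold change -2.07, SE 0.58), was 167 to 310 CPM in CRC and 410 to 817 CPM in healthy mice. Of these 4, 3 had negative and 1 had a positive log2 fold change, with a median of -1.37. The sum of 5 fibroblast miRNAs, led by miR-214-3p (-0.23, SE 0.45), was 4652 to 10774 CPM in CRC and 6673 to 14225 CPM in healthy mice. All 5 had negative log2 fold changes, with a median of -0.59. Like the smooth muscle sum, the nerve and fibroblast sums were highest in M1 and M2 and lowest in M5 and M6. This order of pairs was therefore not particular to smooth muscle. The red blood cell list of 5 miRNAs, led by miR-451a (1.45, SE 0.53), had 4 members with positive and 1 with a negative log2 fold change. It summed to 490 CPM in M4, 1899 CPM in M5 and 1073 CPM in M6, against 379 CPM in the healthy M1, 299 in M2 and 581 in M3. This sum was highest in M5 like miR-181c-5p. Unlike miR-181c-5p, it was lower in M4 than in the healthy M3, so the groups overlapped. The part of these cell types in the miR-181 levels was not tested.

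The lists of cells in which the family is best studied overlapped between the groups. The lymphocyte list of 6 miRNAs, led by miR-150-5p (log2 fold change -0.34, SE 0.49), summed to 1321 to 2544 CPM in CRC and 1387 to 2634 CPM in healthy mice. Of its 5 tested members 3 had positive log2 fold changes, with a median of 0.85, unlike its leading member. The blood cell list of 4, led by miR-142a-3p (0.16, SE 0.91), had 6159 to 7281 CPM in CRC and 2403 to 13356 CPM in healthy mice, with the highest sum in M3. Of its 4 tested members 3 had positive and 1 had a negative log2 fold change, with a median of 0.11. Both arms of the endothelial miR-126a, led by miR-126a-3p (-0.19, SE 0.34), together had 9392 to 12694 CPM in CRC and 11007 to 13527 CPM in healthy mice. The other arm, miR-126a-5p, went the other way (0.58, SE 0.45). The NF-kB feedback list of 6, led by miR-146a-5p (-0.42, SE 0.42), had 1062 to 1832 CPM in CRC and 1345 to 2127 CPM in healthy mice. Of its 5 tested members 3 had positive log2 fold changes, with a median of 0.58, unlike its leading member. The epithelial list of 9, led by miR-192-5p (-0.18, SE 0.44), had 88497 to 166490 CPM in CRC and 112554 to 219989 CPM in healthy mice, which places intestinal epithelium in every profile. Of its 9 tested members 8 had negative log2 fold changes, with a median of -0.49. None of the tested miRNAs of the 9 lists was called by edgeR. Beside the smooth muscle list, an unadjusted p under 0.05 was found for 2 of 4 of the nerve, 2 of 5 of the red blood cell, 1 of 5 of the fibroblast and 1 of 5 of the NF-kB list. DESeq2, which called 12.6% of all tested miRNAs, called 5 smooth muscle, 2 nerve, 1 red blood cell, 1 fibroblast and 1 NF-kB miRNA, and limma-voom called 0. A count of 1 of 5 in a list is near these shares.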

How the data were processed

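Small RNA libraries were sequenced on an Ion Proton, per the labels' protocols, and BWA and the build mm10 (GRCm38) are named in the submitters' processing notes. Read counts per mature miRNA, whole numbers without normalization, were deposited by the authors in a single table. The sources used here do not give the rule for reads that match several entries. Groups were taken from the labels. Members, lists and the rule for named miRNAs were chosen with earlier results of these data known, and no list was tested.

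The counts were fitted across all miRNAs with edgeR 4.0.16 in R 4.3.3 (filterByExpr, TMM, robust glmQLFit, glmQLFTest, two-sided, Benjamini-Hochberg at 0.05). SE is the size of the log2 fold change over the square root of F. Arm ratios were fitted with limma 3.58.1 (trend, robust) on log2 counts with 0.5 added, for hairpins with a mean of at least 10 counts on both arms. The named miRNAs were all members, the 5 tested miRNAs of at least 50 CPM most correlated with each guide strand (log2 CPM, prior count 2), and the most abundant tested member of each marker list. Both tests were checked on simulated data with independent profiles, which lack the neighbouring pairs seen here. The check therefore does not cover that feature. DESeq2 1.42.0, limma-voom, other scalings and filters, GC correction, blocks and left-out mice served as alternatives. Mice are separate animals, and p-values rest on the spread between mice. The tests take the profiles as independent, although they lay in neighbouring pairs. Every CRC library was shallower than every healthy one, so depth and group cannot be told apart. Read counts were low for the rare passenger strands.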

Additional observations from a re-analysis of the deposited data

How the results depend on the processing

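No miR-181 entry was called with RLE or upper-quartile factors, total counts alone, no filter, a filter at 50 CPM, DESeq2, limma-voom, edgeR without robust dispersions, the GC trend removed or identical sequences summed. At an unadjusted p under 0.05, DESeq2 held 1 entry, limma-voom 2, the filter at 50 CPM 2 and total counts alone 3. With total counts alone these were miR-181c-5p (1.16), miR-181d-5p (1.12) and miR-181c-3p (1.33), all higher in CRC, among 197 of 878 tested miRNAs. miR-181b-5p (-0.47), the 1 entry in the main fit, was not among them. Which entries had an unadjusted p under 0.05, and in which direction, thus depended on the scaling. The count of all miRNAs called, 20, was 43 with total counts alone, 64 with no filter, 0 at 50 CPM (61 at an unadjusted p under 0.05), 111 in DESeq2, 0 in limma-voom (216 at an unadjusted p under 0.05) and 576 without both M3 and M4; it ran from 0 without M1, M5 or M6 to 237 without M4, with 4 without M2 and 63 without M3.

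Without both M3 and M4, miR-181a-5p (-1.77), miR-181b-5p (-2.07) and the arm ratios of Mir181a-1 (-1.38) and Mir181a-2 (-1.49) passed their tests, and the sign turned for miR-181d-5p (-0.27), miR-181a-2-3p (-0.13) and the arm ratio of Mir181c (0.073). The sign also turned for miR-181a-5p with blocks (0.21), miR-181a-1-3p with total counts alone (0.39) and, without M4, miR-181a-2-3p (-0.26). Leaving out each mouse gave -1.196 to -0.61 for miR-181a-5p, -1.49 to -0.91 for miR-181b-5p, 0.20 to 0.57 for miR-181c-5p and 0.089 to 0.76 for miR-181d-5p and -0.26 to 1.18 for miR-181a-2-3p; the arm ratios ran from -0.73 to 0.48 for Mir181b-1 and from -0.45 to 0.078 for Mir181c. The summed guide strands differed by -0.74 in log2 on the TMM scale and by 0.00090 with total counts alone. The share of miR-181c-5p among the guide strands was higher in CRC by 10.8 percentage points, and by 7.20 to 14.8 without 1 mouse. The cause of these changes was not tested.

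Of the 5 miRNAs most like each guide strand, total counts alone kept 3 for miR-181a-5p, 3 for miR-181b-5p, 3 for miR-181c-5p and 2 for miR-181d-5p, and Spearman's correlation kept 1, 0, 1 and 0, so these names depend on the measure.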
